A study of Sus scrofa with 8 samples.

Results

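The 6 genes described here are among the secreted and membrane mucins of the pig gene annotation with which transcripts of airway submucosal glands (SMG) were counted. The 6 are the gel-forming mucins MUC5B and MUC19 and the membrane mucins MUC16, MUC1, MUC4 and MUC13. They were chosen by name, as the entries that carry 1 of these 6 gene names among 30364 gene entries, and 20661 of all entries were nuclear protein-coding genes with a coding transcript. The study dissected SMG from the trachea of 4 CFTR-/- and 4 wild-type newborn pigs and profiled their cells by 3′ single-cell RNA sequencing (3′ scRNA-seq), which reads the end of each transcript. CFTR is the anion channel lost in cystic fibrosis, and all 8 libraries used the same annotation. The deposited file analysed here gives the coordinates of genes, exons and coding segments on Sscrofa11.1 and holds no value per library, so expression, cell types and genotype differences were not analysed here. Every number below is a length, a position or a composition of a gene model, and no test between classes was made.

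Mucins are large glycoproteins whose long serine-, threonine- and proline-rich stretches carry dense O-linked sugar chains. Gel-forming mucins are secreted, and cysteine-rich regions near both ends of the protein link them into the polymers that give mucus its structure. Membrane mucins keep a membrane-spanning segment near the C-terminus and stand on the cell surface. In airway glands, mucous cells are known for secreting gel-forming mucins. The long O-glycosylated stretch of many mucins is encoded by tandem repeats, which often lie in a very large exon.

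The gel-forming models were longer and more finely divided than the median membrane model. The coding sequence, counted without the stop codon in the transcript with the most coding bases, was 17274 bp in MUC5B and 12765 bp in MUC19, against 19704 bp in MUC16, 4236 bp in MUC4, 1914 bp in MUC1 and 960 bp in MUC13. The MUC16 model was thus longer than both gel-forming models, and the classes overlapped. The MUC19 model lacks 27096 bases of its curated mRNA, as described below, so this order holds for the models only. Among all coding genes, MUC16 ranked 10, MUC5B ranked 14 and MUC19 ranked 69 from the longest, where the median gene had 1218 bp. The median difference, gel-forming minus membrane, was 11944.5 bp.

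Coding exons numbered 86 in MUC19 and 54 in MUC5B, against 60 in MUC16, 9 in MUC13, 6 in MUC1 and 2 in the longest coding transcript of MUC4. The class medians were 70 in gel-forming and 7.5 in membrane mucins, and the median gene had 7. The largest coding exon held 5829 bp in MUC19 and 3490 bp in MUC5B, against 5907 bp in MUC16, 4154 bp in MUC4, 1389 bp in MUC1 and 196 bp in MUC13. The median gene had 367 bp (interquartile range 216 to 782 bp). A coding exon of at least 3000 bp was found in 2 of 2 gel-forming and 2 of 4 membrane mucins, where 1.04% of all coding genes have one. MUC13 lay below the median gene, with 18.2% of coding genes having a smaller largest exon.

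**Figure D1:**
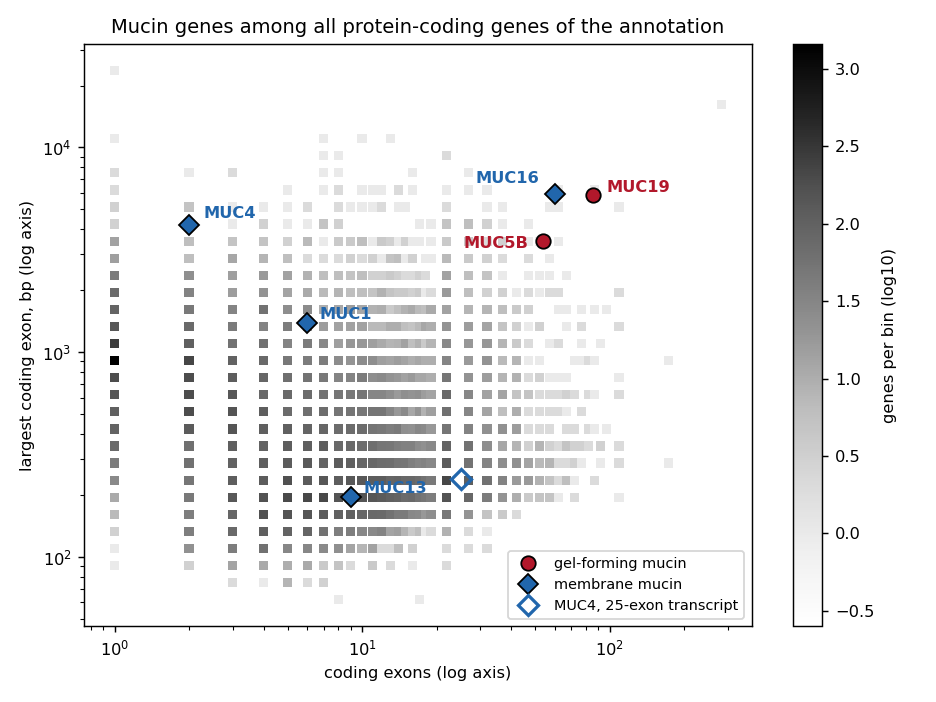
Number of coding exons (x axis, log) against the coding bases of the largest coding exon (y axis, bp, log) for all 20661 coding genes, as grey bins shaded by the number of genes, with gel-forming mucins as circles and membrane mucins as diamonds. MUC19, MUC16 and MUC5B lie at many exons and a very large exon, MUC4 at 2 exons or, by its 25-exon transcript (open diamond), at 239 bp, and MUC13 among the bulk of genes.

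The largest coding exon, its share of coding bases, the gene span and both untranslated regions differed less between class medians than within either class. The largest coding exon held a median of 32.9% of the coding bases in gel-forming and 51.3% in membrane mucins (ranges 20.2 to 45.7% and 20.4 to 98.1%). Gene spans were 104943 bp in MUC19 and 34412 bp in MUC5B, against 115406 bp in MUC16, 56024 bp in MUC4, 29629 bp in MUC13 and 4878 bp in MUC1. The order of the class medians for this share, for the gene span and for both untranslated regions (UTRs) turned round when 1 member was left out: without MUC1 or without MUC4, the share was 2.96 percentage points higher in gel-forming mucins, and without MUC19 their median span was lower (difference -8414.5 bp). Of 20 quantities computed, the ranges of the classes did not overlap in 2. The GC content of the largest coding exon was 69.3% in MUC5B and 60.8% in MUC19, against 43.9 to 58.6% in the 4 membrane mucins. Over the whole gene span it was 69.4% in MUC5B but 38.0% in MUC19, below the 43.8 to 57.5% of the membrane mucins. The other quantity was the hydropathy of the C-terminus, given further on. There the lowest membrane value, 0.46 in the 2-exon transcript of MUC4, lay only slightly above the 0.35 of MUC19.

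**Figure D2:**
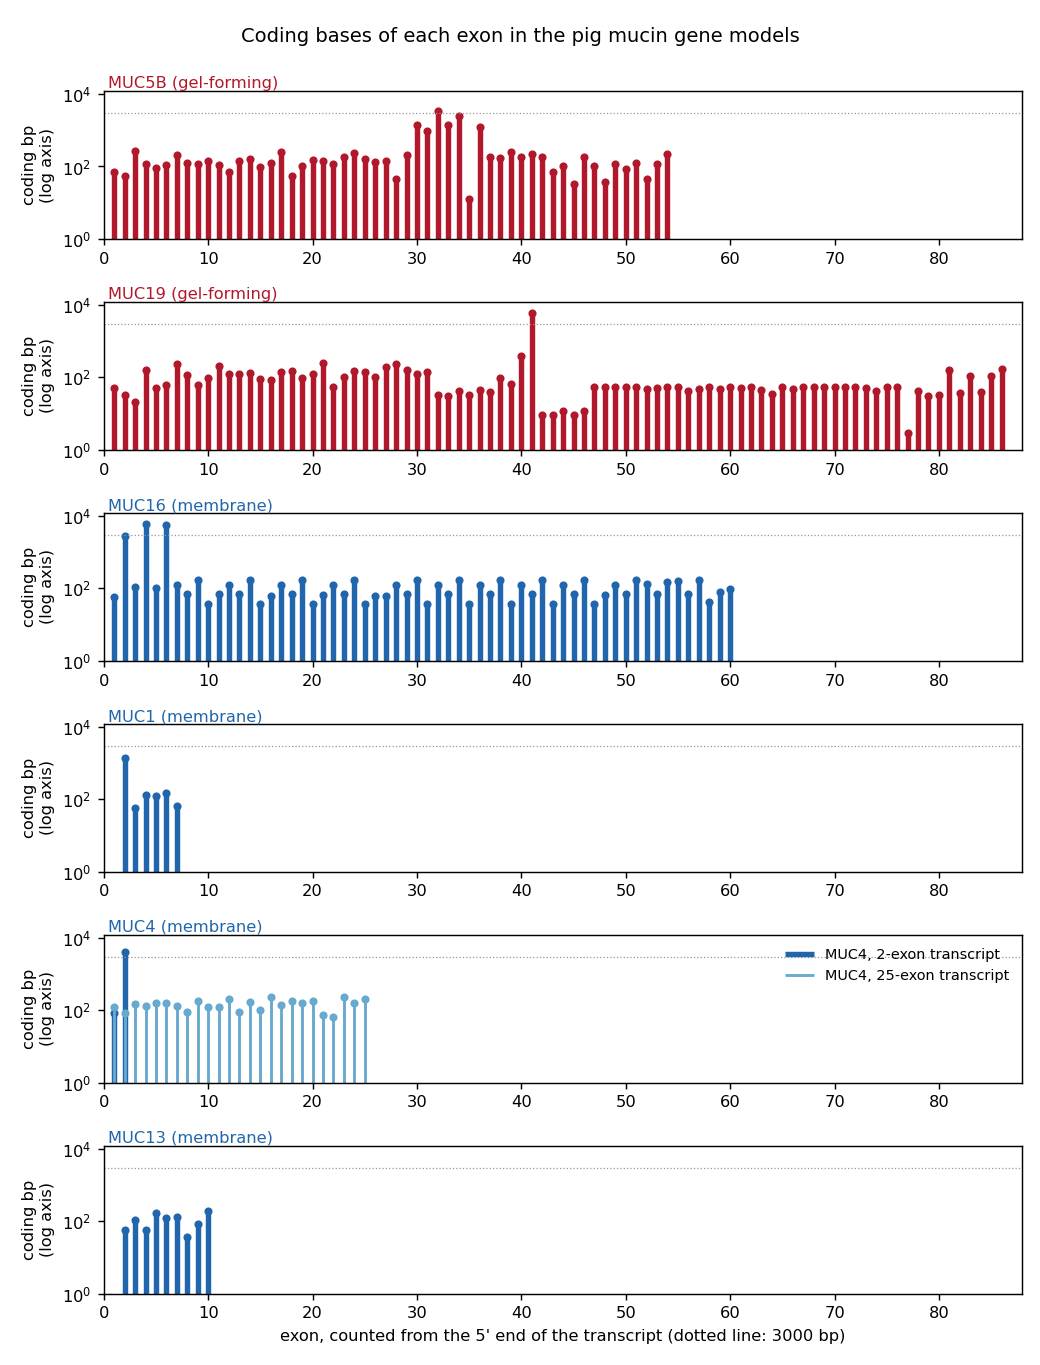
Coding bp (y axis, log) of each exon in order from the 5′ end (x axis) for the longest coding transcript of each mucin, and for MUC4 also the 25-exon transcript. The large exons stand in the middle of MUC5B and MUC19 among exons 2 to 6 of MUC16 and in exon 2 of MUC1 and of MUC4, where it is the last exon of the 2-exon transcript, and MUC13 has none above 196 bp.

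MUC5B (GeneID 110259164) lay on chromosome 2, plus strand, from 807685 to 842096, with 1 predicted transcript of 54 exons, all coding. The model of this secreted mucin had not 1 large exon but a block of them. Exons 30 to 36 had 1358, 971, 3490, 1418, 2485, 13 and 1209 bp and were separated by gaps of 2, 1, 295, 201, 39 and 71 bp. These 7 exons, from 823038 to 834590, held 10944 coding bp, or 63.4% of the coding sequence, within 11553 bp of genome. Of the 6 gaps between them, 4 had the GT and AG ends of a usual intron, against 50 of all 53 introns of the gene. The gaps of 2 and 1 bp, between exons 30, 31 and 32, did not have these ends. Joining segments less than 10 bp apart raised the largest coding stretch of MUC5B to 5819 bp and that of MUC19 to 6227 bp. The annotation notes inserted and deleted bases in the predicted coding sequence, relative to the genome.

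MUC19 (GeneID 396897) lay on chromosome 5, plus strand, from 71964131 to 72069073, and its only transcript is a curated mRNA that the file marks as partial. Exon 41 was the largest exon, with 5829 bp and 45.7% of the coding bases. The 5 exons right after it had 9 or 12 bp each. Of the 45 exons after exon 41, 35 had 30 to 55 bp and 16 had exactly 54 bp. These 35 short exons encoded 45.8% serine, threonine and proline in 1719 coding bp, and 29 of them had a length divisible by 3. The 54-bp exons were not copies of each other at the level of the sequence, with a median identity of 41.7% over 120 pairs (range 18.5 to 77.8%). Of 85 introns, 9 lacked usual ends, and 7 of these 9 lay between exons 40 and 47.

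The same region of MUC19 is where the curated mRNA and the genome part. In the RefSeq alignment, 12998 bases of an mRNA that reaches base 40095 were aligned, a coverage of 32.4%. All 7 unaligned internal stretches, of 231 to 9060 bases and 27096 bases in all, lay between the ends of exons 40 and 47, that is, in a part of 32976 mRNA bases of which 5880 were aligned. No run of N marked a gap in the assembled gene. The coding length, the number of exons and the largest exon of MUC19 are therefore those of the model on this genome and not of the whole mRNA. Spliced distances that cross this part are likewise those of the model.

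**Figure D3:**
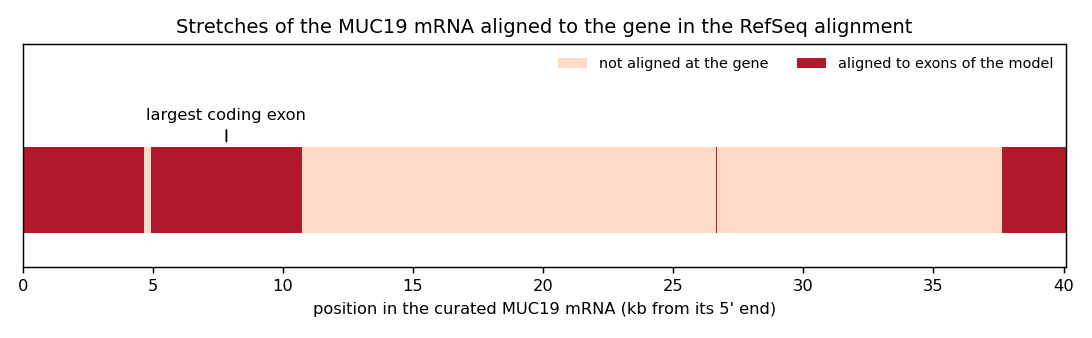
Aligned (dark) and unaligned (light) stretches of the curated MUC19 mRNA by position from its 5′ end (x axis, kb), up to its last aligned base at 40095. The unaligned 27096 bases flank the largest exon and the 5 exons of 9 or 12 bp after it, most of which are too narrow to be seen.

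MUC16 (GeneID 100624460) lay on chromosome 2, minus strand, from 66901635 to 67017040, and is known as a very large mucin of the cell surface. RefSeq lists it as LOC100624460, and the deposited annotation gives it the name MUC16. It had 60 exons, all coding, and all 59 introns had usual ends. Its 3 largest exons, exons 2, 4 and 6, had 2705, 5907 and 5493 bp and held 71.6% of the coding sequence. From exon 7 to exon 51 the model repeated a pattern 10 times: an exon of 122 to 125 bp, then an exon of 68 bp, then an exon of 173 bp, followed in 9 of the 10 by an exon of 36 bp. The 10 exons of 173 bp were 57.2 to 83.8% identical in sequence (median 75.1% over 45 pairs), and the 12 exons of 68 bp were 29.4 to 82.4% identical (median 64.7%). In MUC16, then, whole groups of exons recur, whereas the 54-bp exons of MUC19 share their length more than their sequence.

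MUC1 (GeneID 397382), a membrane mucin of many epithelia, lay on chromosome 4, plus strand, from 94626317 to 94631194, the shortest span of the 6. All 3 transcripts were predicted, and 2 of them had 7 exons, 6 of them coding, with 1914 coding bp, of which exon 2 held 1389 bp (72.6%). The third transcript had 651 coding bp, and its largest coding exon had 150 bp. Whether MUC1 has a large exon thus depended on the transcript read.

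MUC4 (GeneID 100157344), a membrane mucin of airway and other epithelia, lay on chromosome 13, plus strand, from 134192412 to 134248435. Its 4 transcripts differed in which exons of the gene they held. The transcript with the most coding bases had 2 exons, of which exon 2 held 4154 of 4236 coding bp (98.1%), and it ended at 134217307. The other 3 had 24 or 25 exons and 3414 to 3663 coding bp, their largest coding exon had 239 bp, and they ended at 134248435. Of these 3, the curated one began at 134192494, near the 5′ end of the gene, and left out the large exon. No transcript held both the large exon and the exons at the 3′ end of the gene. With the coding transcript that ends farthest 3′ read for each gene, the median largest exon of membrane mucins was 814 bp in place of 2771.5 bp, and the difference, gel-forming minus membrane, was 3845.5 bp in place of 1888 bp.

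MUC13 (GeneID 100125829), a small membrane mucin of epithelia, lay on chromosome 13, plus strand, from 135416709 to 135446337, with 1 curated transcript that the file marks as partial. It had 11 exons, 9 of them coding, and 960 coding bp. Its largest coding exon, the last coding one, had 196 bp. The mRNA aligned over 97.5% of its length, beginning at its base 62.

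The largest exons were tandem repeats over nearly their whole length in MUC19 and MUC4, over part of it in MUC1 and MUC5B, and not in MUC16 or MUC13. In MUC19, bases 243 bp apart were 99.9% identical over the exon, 98.7% of its 30-base runs occurred more than once, and the exon was 24.0 units long. In MUC4 the unit was 456 bp with 95.8% identity, and 95.3% of its runs recurred. In MUC1 it was 108 bp with 81.1% identity, 66.8% of the runs recurred, and the copies of the run printed here spanned bases 20 to 913 of 1389. MUC5B had its highest identity, 60.6%, also at 108 bp, and 44.6% of its runs recurred. In MUC16 no spacing up to 600 bp gave more than 30.1%. The units of 243, 456 and 108 bp encode 81, 152 and 36 residues, so each keeps the reading frame. The most frequent 30-base run of each repeated exon, read from Sscrofa11.1 on the plus strand, is printed here because its copies show how regular the repeat is, with codons for serine, threonine and proline in capitals and the others in lower case.
MUC5B, chromosome 2, 825867 to 825896: ctgtgACAggtgccCCCTCCCCAgggACCa
MUC19, chromosome 5, 72035644 to 72035673: ACAACCggaACAgtgTCTggagcaTCAggg
MUC1, chromosome 4, 94627233 to 94627262: gcCCTgcaTCAggtttggccACCACTCCAg
MUC4, chromosome 13, 134213295 to 134213324: TCATCAgtcTCAgcgACAACTggaCCAggg

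The number and the spacing of exact copies of these runs differed between the genes. The run of MUC19 occurred 24 times in exon 41, each time 243 bp after the last, and the run of MUC1 occurred 9 times, each 108 bp apart. The run of MUC5B occurred 13 times in the gene, 6 of them in exon 32, 4 in exons 30, 34 and 36, 2 across the 5′ edges of exons 34 and 35, and 1 wholly in the gap between exons 33 and 34. None of the 4 runs had an exact copy elsewhere in the assembly, on either strand. The whole stretch of 32976 mRNA bases between exons 40 and 47 of MUC19 would be 135.7 units of 243 bases long, against 24.2 units for the aligned bases. Whether the unaligned bases are repeats was not tested.

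The repeat of MUC4 ran on past the annotated end of its large exon. The run occurred 16 times in the gene over 7323 bp, 9 times within exon 2 of the 2-exon transcript at a constant 456 bp, and 7 times after its end. The step across that end was 455 bp, 1 bp short of a unit, and the next 5 steps were again 456 bp. Of the 7 copies past the end, 6 lay in no exon and the last in exon 1 of the 2 predicted transcripts with 24 and 25 exons. The 2-exon transcript thus ended within the array of repeats, 91 bp before the next copy.

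**Figure D4:**
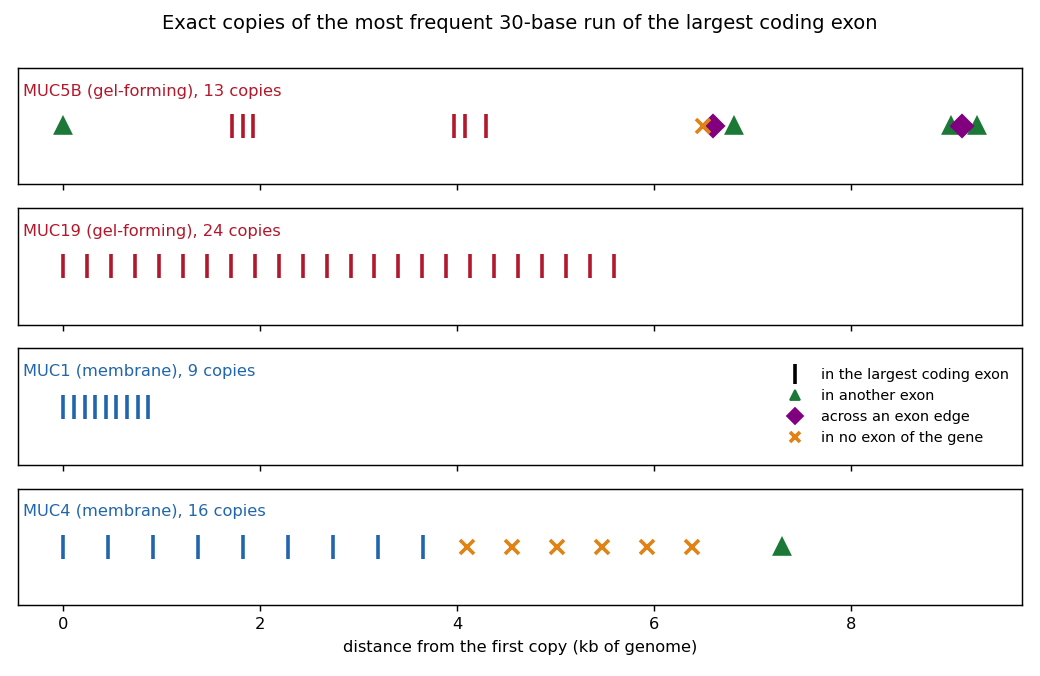
Position of each exact copy of the most frequent 30-base run of the largest coding exon, as distance from the first copy (x axis, kb of genome), for the gel-forming genes MUC5B and MUC19 and the membrane genes MUC1 and MUC4, with bars for copies in the largest coding exon, triangles for other exons, diamonds across an exon edge and crosses for no exon. MUC19 has 24 evenly spaced copies, and 6 of the 16 copies in MUC4 lie in no exon.

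The large exons were rich in the residues that carry or space O-linked sugars in 5 of the 6 genes. Serine, threonine and proline made up 50.6% of the residues of the largest coding exon in MUC5B and 44.4% in MUC19, against 58.3% in MUC1, 58.2% in MUC4, 46.2% in MUC16 and 16.9% in MUC13. A share of at least 40% was found in 2 of 2 gel-forming and 3 of 4 membrane mucins, where 1.7% of all coding genes reach it and the median gene has 19.8%. The other coding exons of the same transcripts encoded 34.8% in MUC5B and 29.2% in MUC19, against 40.2% in MUC16, 19.1% in MUC1, 18.5% in MUC13 and 14.8% in MUC4. In MUC5B, the rest still contains the other large exons of the block: exons 30 to 36 together had 46.7%, and the exons outside the block 22.9%. In MUC16, likewise, the 3 largest exons had 47.6% and the others 27.6%.

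In the longest coding transcript of each gene, cysteine was less frequent in the largest coding exon than in the others. It made up 5.38% of the whole MUC5B protein and 3.20% of MUC19, against 5.31% in MUC13, 0.627% in MUC1, 0.472% in MUC16 and 0.283% in the 2-exon product of MUC4, where the median gene has 2.15%. The largest exon of MUC19 encoded no cysteine, while the other exons encoded 5.83%. The exons before it had 6.76% and the last 7 exons 12.9%. No cysteine was read within exons 33 to 40 or 42 to 78 either, with codons split between exons left out. Exon 77 had no residue to read. In MUC5B, exons outside the central block had 9.37% cysteine and the block 3.02%. In both gel-forming models the share was thus lower in the large central exons than in the pooled exons outside them. The MUC5B block was still above the median gene. In MUC19 the lack of cysteine was not confined to exon 41 but extended to many exons on both sides of it. The high share in the other exon of the MUC4 transcript rests on 27 residues.

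**Figure D5:**
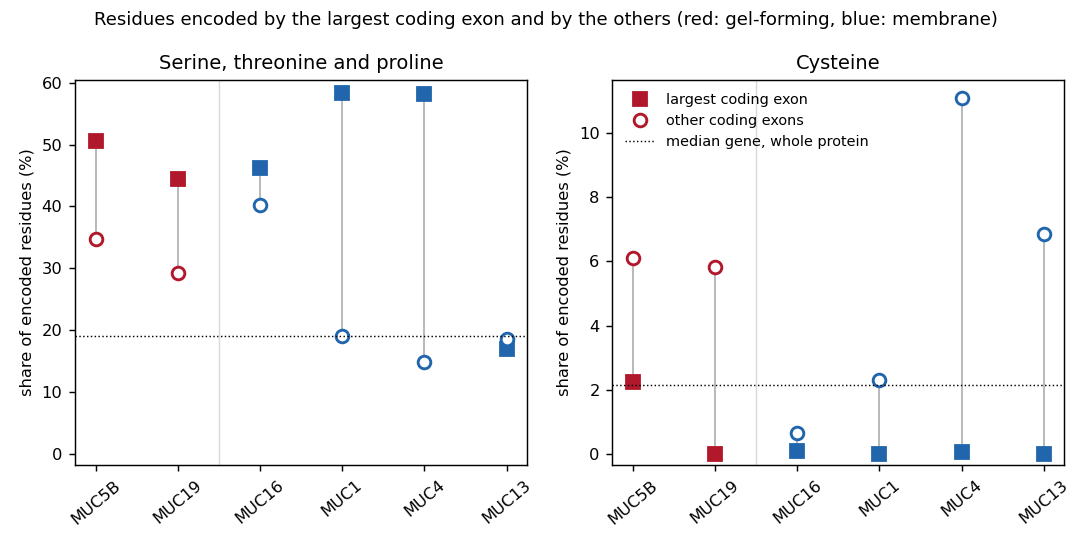
Share of encoded residues (y axes, %) that are serine, threonine and proline (left) and cysteine (right) in the largest coding exon (squares) and in all other coding exons of the same transcript (circles), with the median gene as a dotted line. In all genes but MUC13 the square lies above the circle on the left, and in all 6 it lies below the circle on the right.

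The C-terminus separated the classes where the model reached the end of the gene. Hydropathy was read as the highest mean on the Kyte-Doolittle scale over 19 residues within the last 100, and 1.6 or more was taken as a possible membrane-spanning segment. The value was 0.34 in MUC5B and 0.35 in MUC19, against 3.43 in MUC16, 3.42 in MUC1, 2.86 in MUC13 and 0.46 in the 2-exon transcript of MUC4. This made 0 of 2 gel-forming and 3 of 4 membrane mucins, where 18.4% of the 19076 coding genes with at least 160 residues reach the bound. MUC16 and MUC1 ranked 23 and 25 of all these genes. The 3 transcripts of MUC4 with 24 or 25 exons had 2.64, with 21 residues after the segment. Counting any coding transcript, 0 of 2 gel-forming and 4 of 4 membrane mucins reached the bound, where 19.6% of those genes do. With the 19 residues taken anywhere after the first 60, MUC19 had 1.74, above the bound, and MUC5B had 1.33. The 2-exon transcript of MUC4 again had 0.46, MUC16, MUC1 and MUC13 kept the values above, and the classes overlapped. The separation thus holds for the last 100 residues only. The rule was chosen after values of these models had been seen, as a check of the class names.

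The UTRs did not separate the classes. The 3′ UTR, taken from the coding transcript that ends farthest 3′, was 558 bp in MUC5B and 177 bp in MUC19, against 1496 bp in MUC13, 412 bp in MUC4, 307 bp in MUC1 and 85 bp in MUC16. Only MUC13 exceeded the 716 bp of the median gene, and all of its 3′ UTR lay in the last exon. The class medians were 367.5 bp in gel-forming and 359.5 bp in membrane mucins. The difference was -182.5 bp without MUC5B, and -44.5 bp without MUC16 or without MUC1. The 5′ UTR was 428 bp in MUC5B and 53 bp in MUC19, against 398 bp in MUC1, 129 bp in MUC13, 122 bp in MUC4 and 0 bp in MUC16. No 5′ UTR was annotated in 0 of 2 gel-forming and 1 of 4 membrane mucins, where 11.8% of all coding genes have none. Without MUC5B the difference of the medians changed from 115 bp to -72.5 bp.

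Reads of 3′ scRNA-seq lie near transcript ends, so the end of each model bears on what could be counted for it. A polyadenylation hexamer (AATAAA or ATTAAA, searched on the strand of the gene) stood in the last 50 bases of 2 of 2 gel-forming and 4 of 4 membrane mucins, where 60.9% of all coding genes have one. It began 23 bases before the end in MUC5B and in MUC19, against 35 bases in MUC1, 25 in MUC16, 23 in MUC4 and 18 in MUC13. The 2-exon transcript of MUC4 had none in its last 100 bases and a 3′ UTR of 26 bp. None of the 471 runs of 30 bases in the last 500 spliced bases of any of the 6 genes occurred in the exons of another gene. The repeated exon was separated from the 3′ end by 8112 spliced bases in MUC5B and 2505 in MUC19, against 835 in MUC1 and 0 in the 2-exon transcript of MUC4, where it was the last exon. In MUC5B this distance is counted from exon 32, and exact copies of its run also lay nearer the 3′ end, in exons 34 and 36. In MUC19 the distance leaves out the mRNA bases after exon 41 that are not aligned to the genome. In the curated mRNA, exon 41 ends at base 10741 and the last aligned base is 40095. The 2505 bases therefore fall short of the distance in the whole mRNA.

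All 11 transcripts of the 6 genes had the same exons as in the RefSeq release it was made from, so apart from the name of MUC16 these models were as in that release. An exon base shared with another gene, on either strand, was found in 0 of the 6 members, where 19.9% of all coding genes have one. A run of at least 10 N within the gene was also found in 0 of the 6, and in 0.14% of all coding genes. MUC5B was followed at 9057 bp by TOLLIP on the other strand, and MUC19 lay between LRRK2 (18302 bp) and CNTN1 (99422 bp). MUC4 and MUC20, another membrane mucin, faced each other across 6542 bp, and on the 5′ side of MUC4 lay the noncoding LOC100155748 at 6782 bp. MUC13, on the same chromosome, lay between HEG1 (58035 bp) and ITGB5 (21773 bp). MUC1 lay between MIR92B (1952 bp) and TRIM46 (878 bp).

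The 5′ edge of MUC16 adjoined a second model with a mucin product. LOC102167930, described as mucin-16-like, lay upstream on the same minus strand, from 67017043 to 67037522, and its 3′ end was separated from MUC16 by 2 bp. It had 2 exons, a 5′ UTR of 419 bp, no 3′ UTR and 2163 coding bp, of which 2072 bp were in 1 exon that encoded 47.0% serine, threonine and proline. MUC16 itself had no 5′ UTR. Whether both are parts of 1 gene was not tested. On its 3′ side, MUC16 was followed at 909 bp by LOC102159280 on the other strand.

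Among 11 other mucin and mucin-like genes, the nearest in form were MUC2 and MUC6, the gel-forming mucins known from the gut and stomach. MUC2 had 59 coding exons, 15939 coding bp and a largest coding exon of 2584 bp, and MUC6 had 48 coding exons, 15354 coding bp and a largest exon of 3090 bp. MUC6 was the 1 gene of the 11 with a coding exon of at least 3000 bp. The 3′ UTRs of the 11 had a median of 413 bp, from 0 bp in MUC6 to 7103 bp in MCAM. The lists were compared with the median gene, 716 bp for the 3′ UTR, and with the 1.04% of coding genes that have so large an exon.

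Genes that act with mucins or share their domains were read in the same way. All 19 mucin glycosylation genes were found, the enzymes that build O-linked chains, with a median 3′ UTR of 2244 bp, from 323 bp in GALNT12 to 5548 bp in C1GALT1, and a largest coding exon of at most 1746 bp (GALNT4). All 15 genes of mucous cell secretion were found, with a median 3′ UTR of 239 bp, from 87 bp in ZG16 to 759 bp in LYZ, and at most 981 bp of coding exon (FOXA3). Of 6 large genes with von Willebrand factor D domains, which gel-forming mucins also carry, 5 were found by name and TECTA was not. Their 3′ UTRs had a median of 138 bp, from 47 bp in ZAN to 1298 bp in OTOG, they had 20 to 101 coding exons, and the largest coding exon had 1793 bp (OTOG). Of 10 genes chosen for a very large coding exon, 9 were found and FLG2 was not, and 5 of the 9 had an exon of at least 3000 bp, up to 17106 bp in TTN.

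The probes and primers that the study designed for the gel-forming mucins all matched outside the large exons. In situ hybridization and quantitative PCR used 9 designed sequences for MUC5B and MUC19, of which 8 matched the spliced transcript exactly and 9 with up to 2 mismatches, each at 1 site and within coding bases. The PCR primers are printed to show where the transcripts were sampled, 5′ to 3′ as designed, all in lower case since each matched in full.
MUC5B forward, chromosome 2, 810775 to 810794: tcacccacatcgtcctcaag
MUC5B reverse, chromosome 2, 811185 to 811204: cacgtctggttggcgtactt
MUC19 forward, chromosome 5, 72009089 to 72009108: ggaatgcagctggcgttatg
MUC19 reverse, chromosome 5, 72010224 to 72010243: cactgtctgggcacttagca

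The primers of MUC5B lay in exons 3 and 5 and enclosed 226 spliced bases that end 17299 bases before the 3′ end, and those of MUC19 lay in exons 30 and 31 and enclosed 122 bases, 9233 bases before the 3′ end. The 2 in situ targets of MUC5B lay in exons 27 and 29, 14208 and 14079 bases before the 3′ end. The 3 targets of MUC19 lay in exons 4 to 6, 12745, 12671 and 12610 bases before it. The MUC19 distances are counted on the model and leave out the 27096 mRNA bases not aligned to the genome. They are therefore shorter than in the curated mRNA and cannot be ranked against those of MUC5B. The 1 inexact target, of 40 bases in exon 4 of MUC19, carried the substitution C8T, with the target's base first and positions counted from 1 at its 5′ end. Its first 30 bases are shown because the base that differs, in capitals, falls within them.
MUC19 in situ target, chromosome 5, exon 4: ctcttgtCggttcactccctaacaatggat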

How the data were processed

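The libraries were made with a 3′ single-cell kit from SMG of 4 CFTR-/- and 4 wild-type newborn pigs. The authors counted reads against their own edited RefSeq annotation (Cell Ranger 3.0.2 in the submitters' processing notes), and this annotation, on Sscrofa11.1, is the deposited file analysed here. Its values are start and end coordinates in bp, counted from 1. It holds no counts, so depth is unknown and no interval, replicate error or p-value applies. Lengths were computed from the transcript with the most coding bases, and 3′ ends from the coding transcript that ends farthest 3′. Sequence came from the RefSeq genome of that build, and the curated mRNA alignments and unedited models from RefSeq Annotation Release 106. Exon order, coding frame and strand were kept throughout. Target and primer sequences were taken from the study's tables and matched with 0 to 2 mismatches.

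A difference between classes is the median of the gel-forming genes minus that of the membrane genes, over 2 and 4 genes that are not replicates. Percentages of all coding genes stand beside each count. The named genes are the 6 members, their nearest neighbors, other genes named MUC with a number, and the extremes of each list. Some genes that this rule covers are not reported here. MUC2, LOC102167930 and the genes in the closing observations are given in more detail, chosen after their values were seen. Members, lists and bounds were chosen with earlier results of these data known. All 16 kinds of check on simulated gene models passed. Scripts ran in Python 3.11.15 with pysam 0.24.0 and numpy 2.4.6, the genome was indexed by samtools 1.23.1, and plots were drawn with matplotlib 3.10.9.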

Additional observations from a re-analysis of the deposited data

How the results depend on the processing

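Of 75 alternative values for 13 results, 44 kept their direction and stayed within 1.5 times of the value given, 23 moved further and 8 turned round. With 2 and 4 genes, most of this came from leaving out 1 member: the difference, gel-forming minus membrane, ranged from 505.5 to 3270.5 bp for the largest coding exon, from -39.6 to 2.96 percentage points for its share of coding bases, from -182.5 to 198.5 bp for the 3′ UTR, from -72.5 to 302.5 bp for the 5′ UTR and from -8414.5 to 62116.5 bp for the gene span. It stayed between 46.5 and 78.5 for the number of coding exons and between 9690 and 14199 bp for coding length. With the transcript ending farthest 3′, the largest exon differed by 3845.5 bp and the share by 7.74 points, a reversal that follows from the other MUC4 transcript. With all transcripts merged, the share differed by -8.26 points. Reading the 3′ UTR in the transcript with the longest coding sequence gave 171.5 bp, and the longest 5′ UTR of any transcript gave 63.5 bp. Joining coding segments less than 10 bp apart, chosen after seeing the data, gave 3251.5 bp for the largest exon and 60 for the number of coding exons. With a bound of 5000 bp, 2 members had so large an exon (0.252% of coding genes), and with 1000 bp, 5 did (12.5%). Read from the unedited RefSeq models, the 4 class differences computed (largest coding exon, coding exon number, coding length and 3′ UTR) were the same. The exons were equal in both, so these 4 values, which are among the 44, give no separate support. The same holds for the count of members with a large exon, repeated beside genes whose name does not begin with LOC. The models limit all of this: MUC19 and MUC13 are marked partial, and no MUC4 transcript holds both the large exon and the 3′ exons. No paired analysis was possible because coordinates of gene models are shared by all 8 libraries.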

Other observations

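Other cell surface mucins and mucin-like genes showed the C-terminal hydrophobic segment described for MUC16, MUC1 and MUC13. Its hydropathy was 3.17 in EMCN, 3.15 in MUC12, 2.85 in MUC21, 2.67 in PODXL, 2.44 in CD164 and 2.42 in MUC15, against 0.75 in MUC2 and 0.62 in MUC6, which are secreted. MUC20 had 0.78 and MCAM 1.01, both named as cell surface proteins and below the bound of 1.6. The share of serine, threonine and proline in the largest coding exon was 83.0% in MUC2 and 69.1% in MUC6, above the 50.6% of MUC5B and the 44.4% of MUC19.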
